A study of Mus musculus with 8 samples.

Results

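The contractile genes of smooth muscle were followed through the stroma of fractured and unfractured mouse femurs. The 9 genes are Acta2, Tagln, Myh11, Myl9, Cnn1, Lmod1, Pdlim3, Rergl and Rgs5, chosen by name as known genes of mural cells, out of 28956 genes in the deposited tables. They were chosen with earlier results of these data known. Cells came from 12-week-old female C57BL/6 mice. In the Fracture group the femur had been broken at 10 weeks of age and held by an intramedullary nail, and bone was taken at day 14. The Control group was unfractured. In both groups blood cells had been depleted with magnetic beads against lineage antigens, CD45 and CD117, and single cells were sequenced from the 3′ end of transcripts. Each group held 2 cell preparations of 2 libraries each, and the libraries of a preparation were summed, so that n = 2 per group throughout. The study calls its replicates independent, but no source used here says whether they came from separate animals, so the p-values measure only the spread between these preparations.

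Smooth muscle cells and pericytes, together called mural cells, wrap blood vessels. The smooth muscle actin encoded by Acta2 forms thin filaments, the smooth muscle myosin heavy chain Myh11 with its regulatory light chain Myl9 pulls on them, Tagln and Cnn1 encode actin-binding proteins of this apparatus, Lmod1 nucleates actin filaments and Pdlim3 sits where actin is anchored by alpha-actinin. Rgs5, a regulator of G protein signalling, is a classical pericyte marker, and Rergl is a Ras-like small GTPase. Acta2 and Tagln are also used by activated fibroblasts of healing tissue, known as myofibroblasts, which usually lack Myh11 and Rgs5.

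The 8 libraries held 56543151 to 89126291 UMIs (unique molecular identifiers, each standing for 1 captured transcript), and 45328 of 48903 barcodes passed the filters on cells. Median UMIs per cell were 7711 in Control and 11351 in Fracture. The Control tables contained barcodes down to 1 UMI and those of Fracture none under 1929 UMIs, so the barcodes had been selected unlike in the 2 groups before deposit. Clusters were built without the 9 genes and without 36 other contractile genes, and were named from marker lists. Control preparation 1 stood apart: outside the mural cells it usually had more UMIs of the contractile genes than Control preparation 2, also in erythroid-like cells, where Acta2 was at 15.0 CPM (UMIs of the gene scaled to 1000000 UMIs of the class and preparation) against 1.76 in Control preparation 2 and 2.54 and 3.96 in the Fracture preparations. Values without it are given where a call hung on it and for the genes called in BMSC-like and pooled stromal cells.

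In the mouse genome (GRCm38, GENCODE M21 gene models) Acta2 spans chr19:34241090-34255590, Tagln chr9:45929619-45936058 and Myh11 chr16:14194535-14291372, all on the minus strand. Myl9 spans chr2:156775420-156781658, Cnn1 chr9:22099216-22109630, Lmod1 chr1:135324807-135368065, Pdlim3 chr8:45885461-45919548 and Rgs5 chr1:169655501-169695813, all on the plus strand, and Rergl spans chr6:139492973-139501976 on the minus strand. The genes lie at separate places, also Lmod1 and Rgs5, which share chromosome 1, and Tagln and Cnn1, which share chromosome 9. Serum response factor, with its partner myocardin, is known to bind CArG boxes in front of many smooth muscle genes. The 250 bases before the RefSeq gene start were searched on both strands for the CArG box (CC, then A or T at each of the next positions, then GG). Of the 9 genes 7 were in the promoter table, and 2 of these held a match, against 482 of all 32851 promoters (1.47%). The matches are shown because both genes were among those lower in mural cells after fracture, with 10 bases on each side and the box in capitals, on the gene's strand. They begin 161 and 49 bases before the RefSeq gene start of the promoter table, which for both genes lies downstream of the start of the GENCODE span given above.
Myl9, GRCm38.p6 chr2:156775293-156775322 (+): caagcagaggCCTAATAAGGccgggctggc
Rergl, GRCm38.p6 chr6:139501939-139501968 (−): acaaggacagCCATAAAAGGcactttcaaa
A match of letters is a description of the window and does not show binding. No match to this strict pattern was present in the windows of Acta2, Cnn1, Lmod1, Pdlim3 and Rgs5, and Tagln and Myh11 were not analysed here. Boxes with another base at a middle position were not searched, so such boxes may be present. The Rergl stretch lies inside the GENCODE span of the gene.

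The smooth muscle-like cluster, the mural cells, held the highest CPM of each of the 9 genes in all 4 preparations, except for Rergl, which had 0 UMIs there in Fracture preparation 2. It was named from Notch3, Mcam and 7 other of 10 mural markers, and none of those 10 was at 0 in any preparation. Of all Acta2 UMIs in Control, 89.2% and 95.5% lay in this cluster, but only 40.8% and 47.9% in Fracture. The BMSC-like cluster, named from marrow stromal markers such as Cxcl12 and Lepr, held 0.818% and 1.13% of Acta2 UMIs in Control and 38.5% and 32.5% in Fracture. The fibroblast-like cluster went from 0.787% and 0.222% to 10.5% and 8.74%. Tagln showed the same order, with 40.04% and 34.7% of its Fracture UMIs in BMSC-like cells against 1.44% and 3.60% in Control. For Rgs5 and Myh11 the shares moved less. Mural cells held 84.9% and 95.3% of Rgs5 UMIs in Control and 84.0% and 80.7% in Fracture, and 89.2% and 94.8% of Myh11 UMIs in Control and 77.1% and 81.0% in Fracture. The BMSC-like share of Myh11 UMIs went from 0.615% and 1.06% to 4.45% and 2.15%. Thus after fracture most Acta2 UMIs came from outside the mural cells, whereas most Myh11 and Rgs5 UMIs did not. Fewer mural cells in the Fracture preparations enter these shares.

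Plain CPM of Acta2 in Fracture ordered the larger classes as mural cells (7144 and 8934), BMSC-like (851 and 697), fibroblast-like (299 and 217), endothelial-like (59.4 and 56.7), chondrocyte-like (15.6 and 14.8) and osteoblast-like (4.76 and 7.03). The preparations of neighbouring classes in this order did not overlap. In Control the order was mural (17847 and 13110), endothelial-like (360 and 35.8), fibroblast-like (166 and 28.2), BMSC-like (33.6 and 15.0), chondrocyte-like (36.7 and 9.96) and osteoblast-like (12.0 and 1.22), and all neighbours after the mural cells overlapped. BMSC-like cells thus came after endothelial-like and fibroblast-like cells in Control and before them in Fracture. Myl9 was also high in megakaryocyte-like cells, at 1156 and 655 CPM in Control and 221 and 795 in Fracture, the latter from only 23 and 20 cells.

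In mural cells 7 of the 9 genes were lower in Fracture and none was higher. All 9 passed the filter on low counts. Among all 9914 genes tested in this class 29.3% were called in either direction (1342 lower), by edgeR's quasi-likelihood test at a Benjamini-Hochberg adjusted p under 0.05. The cluster held 677 and 208 cells in Control and 151 and 147 in Fracture. The following CPM values are scaled to library size by the TMM method and are given for Control preparations 1 and 2 and Fracture preparations 1 and 2, in this order.

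Among the force-generating proteins, Myh11 was at 4254, 3427, 597 and 893 CPM. Both Fracture preparations lay far below both Control preparations, with a log2 fold change of -2.37 (SE 0.26, adjusted p = 0.00232 by edgeR). Its light chain Myl9 was at 5907, 3761, 1135 and 1583 CPM, again without overlap, and fell by 1.83 on the log2 scale (SE 0.30, adjusted p = 0.00722). Among the thin filament genes, Acta2 itself was at 18239, 13020, 7264 and 9179 CPM. Its groups did not overlap either, but the log2 difference of -0.93 (SE 0.28) narrowly missed the threshold (adjusted p = 0.0531 by edgeR). Tagln was at 11365, 7469, 2971 and 3325 CPM and fell by 1.58 (SE 0.27, adjusted p = 0.0088). Cnn1, calponin 1, was at 317, 154, 71.4 and 97.9 CPM and fell by 1.48 (SE 0.36, adjusted p = 0.0254). The filament nucleator Lmod1 (931, 737, 161 and 201 CPM) fell by 2.20 (SE 0.20, adjusted p = 0.00161), and the anchoring gene Pdlim3 (339, 297, 48.9 and 77.3 CPM) fell by 2.33 (SE 0.24, adjusted p = 0.0021). The size of the difference therefore ran from 0.93 for Acta2 to over 2 log2 units for Myh11, Lmod1 and Pdlim3.

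The small GTPase gene Rergl nearly vanished. It was at 51.8 and 43.3 CPM in Control and at 1.604 and 0 CPM in Fracture, which is 212 against 2 UMIs. The ratio of Control to Fracture was 62.5 (95% interval 17.1 to 520, counting error only; adjusted p = 0.00205 by edgeR). The pericyte marker Rgs5 was at 8161, 12445, 9797 and 9406 CPM, the groups overlapped, and the log2 difference was -0.10 (SE 0.28, adjusted p = 0.814 by edgeR). The call for Acta2 depended on the setting. It was past the threshold in 7 of 11 alternatives: by DESeq2 (-0.93), with no filter (-0.96), without Control preparation 1 (-0.67), without Control preparation 2 (-1.17), without integration (-0.80), with members kept in the clustering (-0.96) and with at least 3000 UMIs per cell (-0.98). The calls for Tagln, Myl9 and Cnn1 were lost without either Fracture preparation (Tagln -1.50 and -1.66, Myl9 -1.61 and -2.09, Cnn1 -1.26 and -1.72). With single libraries left out, Acta2 was called in 3 of 8 cases (-0.92, -0.94 and -0.995) and Cnn1 lost its call without library 2 of Fracture preparation 2 (-1.32).

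Several other measures moved with these differences, and their part in them was not tested. Mural cells were 7.41% and 4.16% of stromal cells in Control and 1.31% and 1.19% in Fracture, a difference of -4.53 percentage points (exact permutation test, two-sided, p = 0.333, the smallest that 2 against 2 preparations allow). Stromal cells here are the mural, BMSC-like, fibroblast-like, osteoblast-like, chondrocyte-like and endothelial-like cells together. Chondrocyte-like cells were 22.7% and 13.6% of them in Control and 58.9% and 57.5% in Fracture, which lowers the share of every other class. Summed chondrocyte markers in mural cells were at 507 and 123 CPM in Control and 11163 and 4232 in Fracture, with none of the 6 at 0, and summed erythroid markers at 58.0 and 104 CPM against 4440 and 4729. The 8 vascular smooth muscle markers summed to 5287 and 4288 CPM in Control and 1080 and 1448 in Fracture, while the 8 pericyte markers stood at 2269 and 2869 against 2595 and 2743 CPM. Callus stroma markers went from 222 and 226 to 1723 and 1449 CPM, fibroblast markers from 754 and 747 to 1924 and 2508, osteoblast markers from 784 and 873 to 3439 and 1189 and marrow stromal markers from 1265 and 1092 to 490 and 281. The makeup of the cluster differed between the groups, so its parts were compared separately.

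Mural cells split into pericyte-like cells (212, 89, 90 and 93 in the order above), marked by Kcnj8, Abcc9, Vtn and others, and vascular smooth muscle-like cells (438, 110, 26 and 26), marked by Pln together with Map3k7cl and Sncg or with Itga8 and Hspb6. The names rest on 6 of 8 pericyte markers and, in 2 subclusters, on 3 and 5 of 8 vascular smooth muscle markers. They are relative, since Control pericyte-like cells also held Myh11 and vascular smooth muscle markers, as given below. Vascular smooth muscle-like cells were 64.7% and 52.9% of mural cells in Control and 17.2% and 17.7% in Fracture. The other cells lay in 3 small subclusters led by genes of dividing and erythroid, marrow stromal or endothelial cells and were left unnamed. The split was made after the data had been seen.

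In pericyte-like cells 6 of 9 genes were lower and none was higher, where 18.9% of the 8409 genes tested were called. Myh11 was at 1967, 1563, 394 and 509 CPM (log2 fold change -1.97, SE 0.21, adjusted p = 0.0023 by edgeR). Lmod1 was at 404, 337, 95.1 and 125 CPM (-1.75, adjusted p = 0.00275), and Pdlim3 at 218, 188, 43.2 and 48.3 CPM (-2.15, adjusted p = 0.00151). Rgs5, by contrast with the whole cluster, was lower here, at 22982, 24471, 11618 and 12548 CPM (-0.97, SE 0.19, adjusted p = 0.0139 by edgeR). Rergl had 35 UMIs in Control, at 25.7 and 24.8 CPM, and 0 in both Fracture preparations, which makes it at least 13.04-fold lower, with a floor of 3 counts set for the group as a whole. Myl9 was lower by -1.06 (adjusted p = 0.0353). Acta2 was at 7028, 4502, 5509 and 6843 CPM, with overlapping groups and a log2 difference of 0.10 (SE 0.25, adjusted p = 0.818 by edgeR). Tagln (-0.64, adjusted p = 0.105) and Cnn1 (0.44, adjusted p = 0.664) were not called. Cnn1 had only 42 and 3 UMIs in Control and 34 and 24 in Fracture. The call for Myl9 was lost without either Fracture preparation (-0.83 and -1.34) and that for Rgs5 without Fracture preparation 2 (-1.04), while Tagln was called without Control preparation 2 (-0.96), with no filter (-0.64) and with the replicate block (-0.61), and Cnn1 without Control preparation 1 (2.68).

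In these pericyte-like cells the summed chondrocyte markers were 857 and 143 CPM in Control and 13535 and 6306 in Fracture, whereas the erythroid sum was 27.4 and 104 against 166 and 268, and no defining mural marker was at 0. The 8 pericyte markers themselves summed to 4281 and 4518 CPM in Control and 2831 and 3322 in Fracture, and the 8 vascular smooth muscle markers to 3181 and 2308 against 768 and 841, so the subclass too was unlike in the groups. Callus stroma markers stood at 557 and 425 against 1884 and 1532 CPM. The part of these transcripts in the differences was not tested.

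In vascular smooth muscle-like cells only Rergl was called, where 5.47% of the 6120 genes tested were called. It was at 67.7, 60.3, 5.63 and 0 CPM, or 170 UMIs against 1, a ratio of 25.7 (95% interval 4.55 to 1021, counting error only; adjusted p = 0.0284 by edgeR). Acta2 stood at 24591, 20457, 19992 and 21976 CPM, with a log2 difference of -0.10 (SE 0.24, adjusted p = 0.849 by edgeR). Tagln stood at 15642, 11862, 9520 and 11005 CPM. Myh11 (5589, 5122, 1886 and 3209 CPM, -1.07, adjusted p = 0.098) and Lmod1 (1236, 1094, 563 and 625 CPM, -0.97, adjusted p = 0.0548) were lower in both Fracture preparations than in both Control preparations without passing the test. Rgs5 varied from 1178 to 4525 CPM in Control and from 4058 to 8698 in Fracture. Fracture preparation 1 stood apart here: summed chondrocyte markers were at 359 and 112 plain CPM in Control and at 11079 and 1273 in Fracture, erythroid markers at 21.2 and 91.5 against 7348 and 208, and fibroblast markers at 386 and 747 against 3372 and 1898. Callus stroma markers, higher in both Fracture preparations, were at 40.4 and 84.0 against 870 and 824. The vascular smooth muscle markers themselves summed to 6535 and 5920 against 3017 and 4514. The part of these transcripts in the values was not tested. The 26 cells of each Fracture preparation limit what could be seen. The call for Rergl was lost without Control preparation 1 (-4.38), by DESeq2 (-4.64) and with the replicate block (-4.50). DESeq2 called Myh11 (-1.12), Myl9 (-0.88) and Lmod1 (-1.02), and with no filter these 3 (-1.21, -0.98 and -1.12), Pdlim3 (-1.10) and Rgs5 (1.03) were called. Without Fracture preparation 2 Myh11 (-1.55), Lmod1 (-1.10) and Pdlim3 (-1.64) were called, as were Lmod1 (-1.12), Pdlim3 (-1.04) and Rgs5 (2.37) without Control preparation 2.

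Within the subclasses, therefore, Acta2 differed by 0.10 log2 units in either direction, although over all mural cells it differed by -0.93. The vascular smooth muscle-like subclass joined 2 subclusters that went opposite ways. In plain CPM Acta2 was at 21360, 17803, 13869 and 14733 in the first (270, 88, 18 and 15 cells). In the second (168, 22, 8 and 11 cells) it was at 26221, 26924, 29493 and 29396. Neither was tested alone, for want of Fracture cells. Shares of cells were counted after each cell had been thinned to 1000 UMIs. Myh11 was detected in 90.9% and 84.1% of mural cells in Control and in 30.5% and 44.2% in Fracture, and in pericyte-like cells in 77.4% and 69.7% against 23.3% and 38.7%. Without thinning, Myh11 was detected in 97.0% and 95.7% of Control and 73.5% and 79.6% of Fracture mural cells. Cells with Rgs5 and no Myh11 were 8.31% and 14.4% of mural cells in Control and 65.6% and 52.4% in Fracture. Acta2 was detected in 93.1% and 84.6% of mural cells against 76.8% and 85.0%, in pericyte-like cells in 79.4% and 65.2% against 71.1% and 87.1%, and in vascular smooth muscle-like cells in all Control cells against 96.2% in each Fracture preparation. With 2 preparations per group, no exact permutation test of such shares can give a p under 0.333.

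Outside the mural cells the BMSC-like cluster showed the largest difference of Acta2 among the main classes. BMSC stands for bone mesenchymal stromal cells, which include perivascular cells of the marrow that support blood formation. The cluster held 2615 and 1713 cells in Control and 1037 and 1117 in Fracture. Of the 9 genes 7 passed the filter, and 4 were higher and none lower, where 51.4% of the 14749 genes tested were called (3749 higher and 3825 lower), so a call by itself sets a gene little apart in this class.

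Acta2 was at 31.3 and 14.1 CPM in Control and at 905 and 751 CPM in Fracture. The groups were far apart, and the log2 fold change was 5.19 (SE 0.45, adjusted p = 0.00239 by edgeR). Tagln was at 35.7, 27.8, 400 and 319 CPM (3.50, SE 0.19, adjusted p = 0.00134). Cnn1 was at 0.730, 0.822, 16.1 and 10.0 CPM (4.06, SE 0.34, adjusted p = 0.00224). Myl9 was at 148, 95.3, 260 and 271 CPM (1.13, SE 0.22, adjusted p = 0.0141). The other genes tested did not move with them. Myh11 was at 5.47, 3.51, 4.56 and 2.86 CPM (-0.29, SE 0.35, adjusted p = 0.527 by edgeR), Lmod1 at 6.57, 7.996, 9.01 and 8.57 CPM (adjusted p = 0.219), and Rgs5 at 24.3, 11.2, 34.0 and 12.3 CPM (adjusted p = 0.624). Pdlim3 had 9 and 2 UMIs in Control and 3 and 0 in Fracture, and Rergl had none, so neither was tested. The genes that were higher are thus actin, actin-binding and light chain genes, and the myosin heavy chain of smooth muscle and the pericyte marker were not among them.

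Set against the level in mural cells of the same preparation, Acta2 in the BMSC-like cluster stood at 11.9% and 7.81% in Fracture, Tagln at 12.9% and 9.14%, Myh11 at 0.729% and 0.305%, and Rgs5 at 0.332% and 0.125%. The genes thus did not stand in the ratio they had in mural cells. Without either Fracture preparation the call for Myl9 was lost (1.16 and 1.10). Without Control preparation 1 all 4 calls stood (Acta2 5.89, Tagln 3.71, Cnn1 3.98 and Myl9 1.502) and Rgs5 was called too (1.05).

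The cells of this cluster in Fracture went against its name. Its 6 marrow stromal markers summed to 25637 and 26928 CPM in Control and 1748 and 2058 in Fracture. In plain CPM, Cxcl12, the chemokine of the blood stem cell niche, stood at 20441 and 21009 in Control and at 1362 and 1609 in Fracture. Of the 5 callus stroma markers 4 were higher in Fracture. Lrrc15, a membrane protein of activated fibroblasts, went from 1.63 and 0.0792 to 70.3 and 66.7, Thy1 from 0.522 and 0.0792 to 74.3 and 70.5, and the matrix genes Cthrc1 from 40.5 and 10.1 to 904 and 763 and Postn from 493 and 250 to 1499 and 1354. The fifth, Tnc, the most abundant of them, was lower, at 2665 and 2175 in Control and 1719 and 1677 in Fracture. Summed tendon markers went from 69.7 and 10.1 to 841 and 802 CPM, fibroblast markers from 119 and 49.1 to 758 and 822, chondrocyte markers from 932 and 435 to 3012 and 3329 and erythroid markers from 116 and 1108 to 976 and 2361, and their part in the differences was not tested. When clusters were built without integration of the libraries, 8.36% of these Fracture cells remained BMSC-like, 41.3% fell among fibroblast-like and 47.2% among osteoblast-like cells, whereas 81.0% of the Control cells remained BMSC-like. A difference within marrow stromal cells and a different kind of cell in the same cluster therefore cannot be told apart. In the clusters without integration Acta2 was still higher in the few BMSC-like cells (3.41), but Tagln (1.81) and Myl9 (1.69) were not called there.

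The comparison was therefore repeated over the sum of BMSC-like, fibroblast-like and osteoblast-like cells, which does not depend on the borders between these 3 clusters and was added after the data had been seen. The same 4 genes were higher and none was lower, where 40.3% of the 16737 genes tested were called. Acta2 was at 27.8, 7.10, 305 and 245 CPM (log2 fold change 3.98, SE 0.73, adjusted p = 0.0178 by edgeR) and Tagln at 21.8, 12.1, 130 and 98.4 CPM (2.75, SE 0.34, adjusted p = 0.00751). Cnn1 was at 0.603, 0.339, 5.04 and 3.09 CPM (3.06, adjusted p = 0.00865), and Myl9 at 56.9, 37.7, 79.3 and 79.0 CPM (0.74, adjusted p = 0.0494). Myh11 was at 4.52, 2.26, 1.98 and 1.13 CPM (-1.14, adjusted p = 0.111), Pdlim3 at 0.784, 0.283, 0.223 and 0.145 CPM, and Lmod1 (-0.27) and Rgs5 (0.24) were not called. The makeup of this sum also differed. Marrow stromal markers went from 8185 and 10078 to 628 and 698 CPM, osteoblast markers from 69679 and 76068 to 25834 and 32496, tendon markers from 125 and 34.5 to 873 and 883, and callus stroma markers from 1892 and 1552 to 3421 and 3174, and their part in the differences was not tested. Without a Fracture preparation the calls for Acta2 (3.82 without preparation 1 and 4.14 without preparation 2), Tagln (2.54 and 2.94), Myl9 (0.75 and 0.76) and, without preparation 1, Cnn1 (2.69) were lost, while without Control preparation 1 all 4 stood (5.29, 3.24, 1.08 and 3.57) and Rgs5 was called (0.38). Myl9 also lost its call with the replicate block (0.77), without integration (0.75) and with members kept in the clustering (0.73). Myh11 was called by DESeq2 (-1.11), with the replicate block (-1.10) and without Control preparation 2 (-1.56), the last also for Pdlim3 (-2.09).

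The cells of these 3 classes were also clustered again, and 2 of the resulting subclusters were made up mostly of BMSC-like cells. Stromal subcluster 1, with 3677 BMSC-like and 94 fibroblast-like cells, was led by Lpl, Adipoq and Cxcl12, genes of diaphyseal marrow stroma, and had 1674, 1228, 414 and 455 cells. Here Acta2 was at 18.9 and 13.4 CPM in Control and at 1868 and 1538 CPM in Fracture (log2 fold change 6.72, SE 0.26, adjusted p = 0.000262 by edgeR). Tagln was at 37.7, 32.6, 835 and 681 CPM (4.43, SE 0.16, adjusted p = 0.000262), Cnn1 at 0.790, 0.779, 39.3 and 23.9 CPM (5.30, adjusted p = 0.000593), Myl9 at 151, 95.4, 385 and 399 CPM (1.67, adjusted p = 0.00349) and Lmod1 at 6.99, 8.46, 18.3 and 17.7 CPM (1.22, adjusted p = 0.0036). These 5 of 7 genes tested were higher, where 56.3% of genes were called. Myh11 was at 5.53, 4.79, 10.999 and 4.91 CPM, with overlapping groups. Rgs5 was at 26.8, 15.8, 15.7 and 15.8 CPM, where Control preparation 2 and both Fracture preparations nearly coincided. In plain CPM Rgs5 was at 29.3 and 17.0 in Control and 14.5 and 14.4 in Fracture. Neither gene was called. Myh11 was called without Fracture preparation 2 (1.12) and Rgs5 without Control preparation 2 (-0.78). The marrow stromal markers in this subcluster summed to 41387 and 36294 CPM in Control and 2255 and 2853 in Fracture, so the limit on the name holds here too. Summed callus stroma markers went from 1176 and 954 to 4453 and 4171 CPM, tendon markers from 13.4 and 7.30 to 1176 and 1127, fibroblast markers from 39.6 and 22.5 to 1421 and 1603, chondrocyte markers from 486 and 169.97 to 2948 and 3602 and erythroid markers from 186 and 1613 to 3020 and 6396, and their part in the differences was not tested.

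Stromal subcluster 2, of 2313 BMSC-like, 242 osteoblast-like and 1 fibroblast-like cell, was led by Mmp9 and Limch1, with the matrix-degrading enzyme gene Mmp13 also among its top genes, and had 928, 515, 537 and 576 cells. Acta2 was at 28.0, 14.9, 140 and 147 CPM (2.73, SE 0.30, adjusted p = 0.00473 by edgeR) and Tagln at 19.9, 16.8, 45.7 and 37.0 CPM (1.16, adjusted p = 0.00813), both higher, whereas Lmod1 was lower, at 6.09, 6.91, 2.78 and 0.822 CPM (-1.86, adjusted p = 0.042), where 30.8% of genes were called. Tagln lost its call without Fracture preparation 1 (1.02), and Lmod1 without either Fracture preparation (-2.93 and -1.21), by DESeq2 (-1.84) and with the replicate block (-1.88). Acta2 in Fracture thus lay far higher in subcluster 1 than in subcluster 2. Marrow stromal markers summed to 8039 and 8208 CPM in Control and 1412 and 1396 in Fracture here too, and callus stroma markers to 5586 and 5364 against 3852 and 3844. Tendon markers went from 43.3 and 26.0 to 259 and 249.7, fibroblast markers from 106 and 70.9 to 393 and 541, chondrocyte markers from 1321 and 871 to 2256 and 2498 and erythroid markers from 38.5 and 124 to 312 and 683, and their part was not tested.

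**Figure D1:**
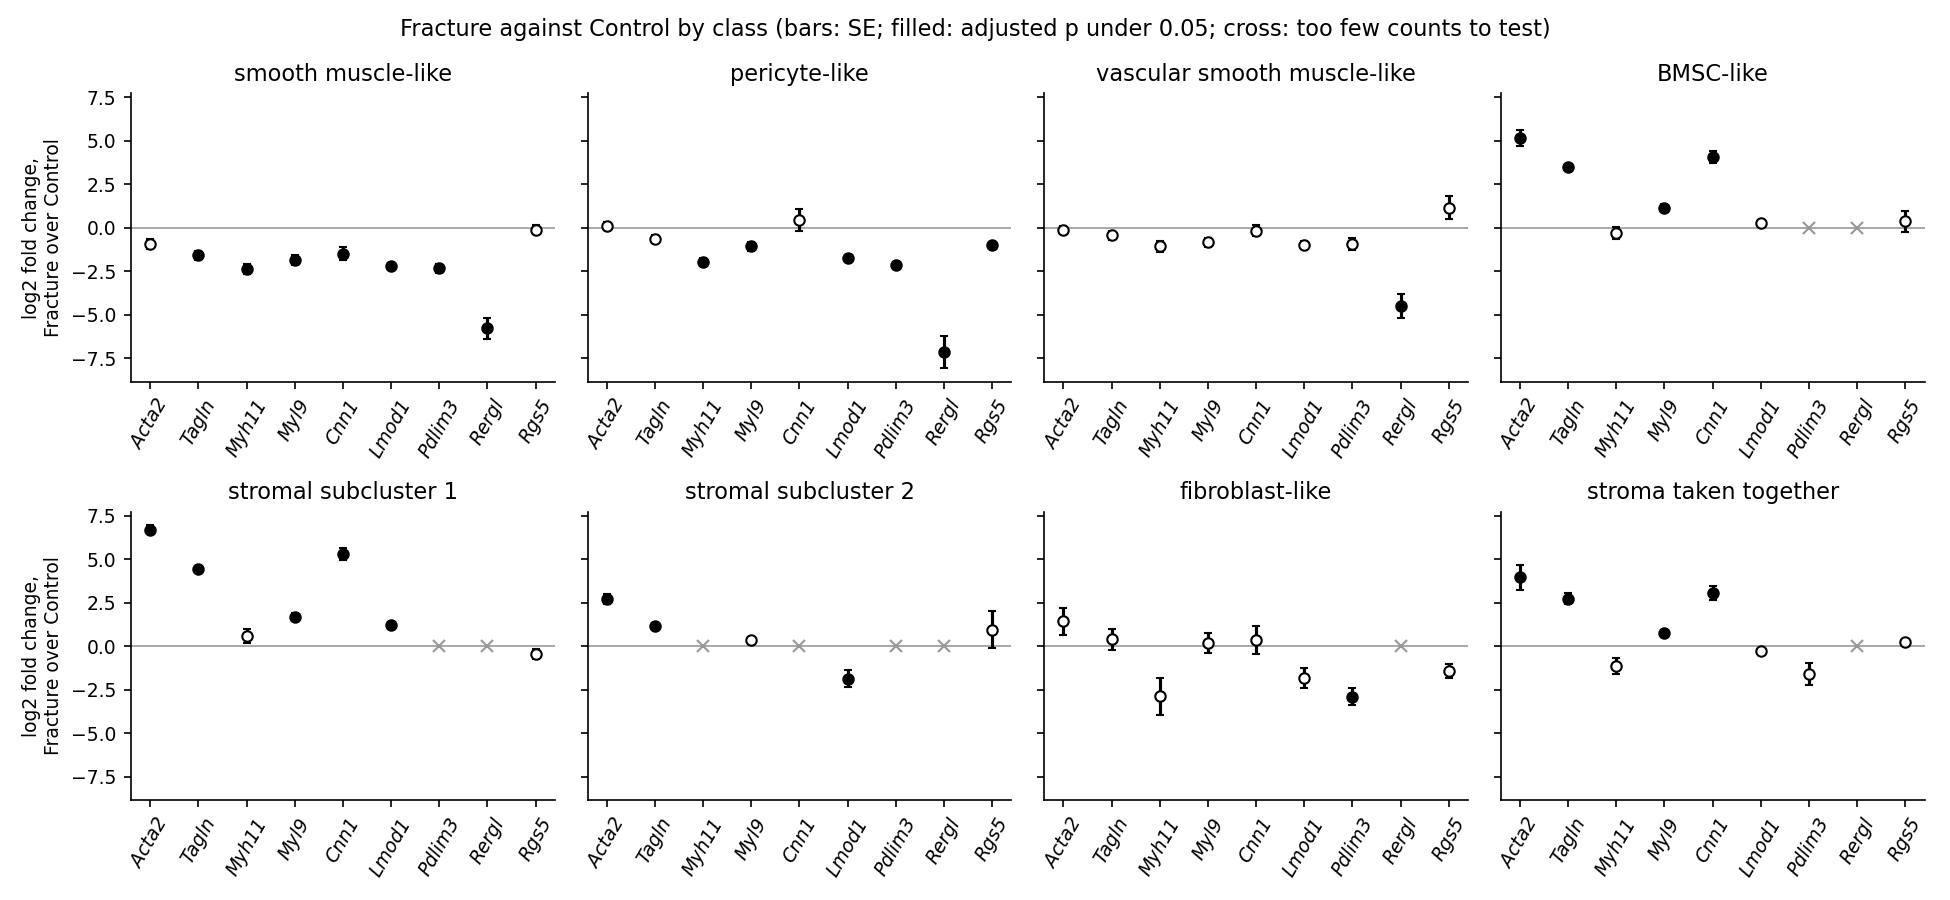
Log2 fold change of Fracture over Control for each gene (horizontal axis) in mural cells, in their 2 subclasses and in stromal classes, with the standard error as a bar. Filled points have an adjusted p under 0.05 and crosses mark genes with too few counts to test; mural cells have filled points only below 0, while Acta2, Tagln, Cnn1 and Myl9 lie above 0 in BMSC-like cells.

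At a finer resolution the stroma gave 11 clusters with at least 20 cells in every preparation, described here with no test. Acta2 was higher in both Fracture preparations than in both Control preparations in 6 of them and lower in none, and Tagln was higher in 7 and lower in none. Lmod1 went more often the other way (higher in 1, lower in 8), as did Myh11 (1 and 5) and Pdlim3 (0 and 5). Over the pooled stroma Pdlim3 had only 39 and 10 UMIs in Control and 8 and 6 in Fracture. The share of all genes ordered in these ways was not counted, so the counts do not set these genes apart. With 2 preparations per group, an exact permutation test of such an order gives no p under 0.333. Among the 11 clusters, Acta2 was highest in fine cluster 5, led by Penk, Acta2, Cfd, Matn4 and Tnmd and with all 4 tendon markers, at 395, 83.1, 1684 and 1079 plain CPM, and in fine cluster 0, led by Lpl and Adipoq, at 13.8, 15.6, 1374 and 1631. Leading genes were taken over all cells of a cluster, and cluster 0 held 1345 and 1021 cells in Control but 146 and 180 in Fracture. In stromal subcluster 1, also led by Lpl and Adipoq, Adipoq stood at 3512 and 3134 CPM in Control and 181 and 250 in Fracture. The Control values of cluster 5 came from 119 and 57 cells, and erythroid-like cells of the same preparations stood at 15.0 and 1.76 CPM. In fine cluster 2, led by the osteoblast gene Bglap, Acta2 stayed between 0.965 and 8.53 CPM.

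**Figure D2:**
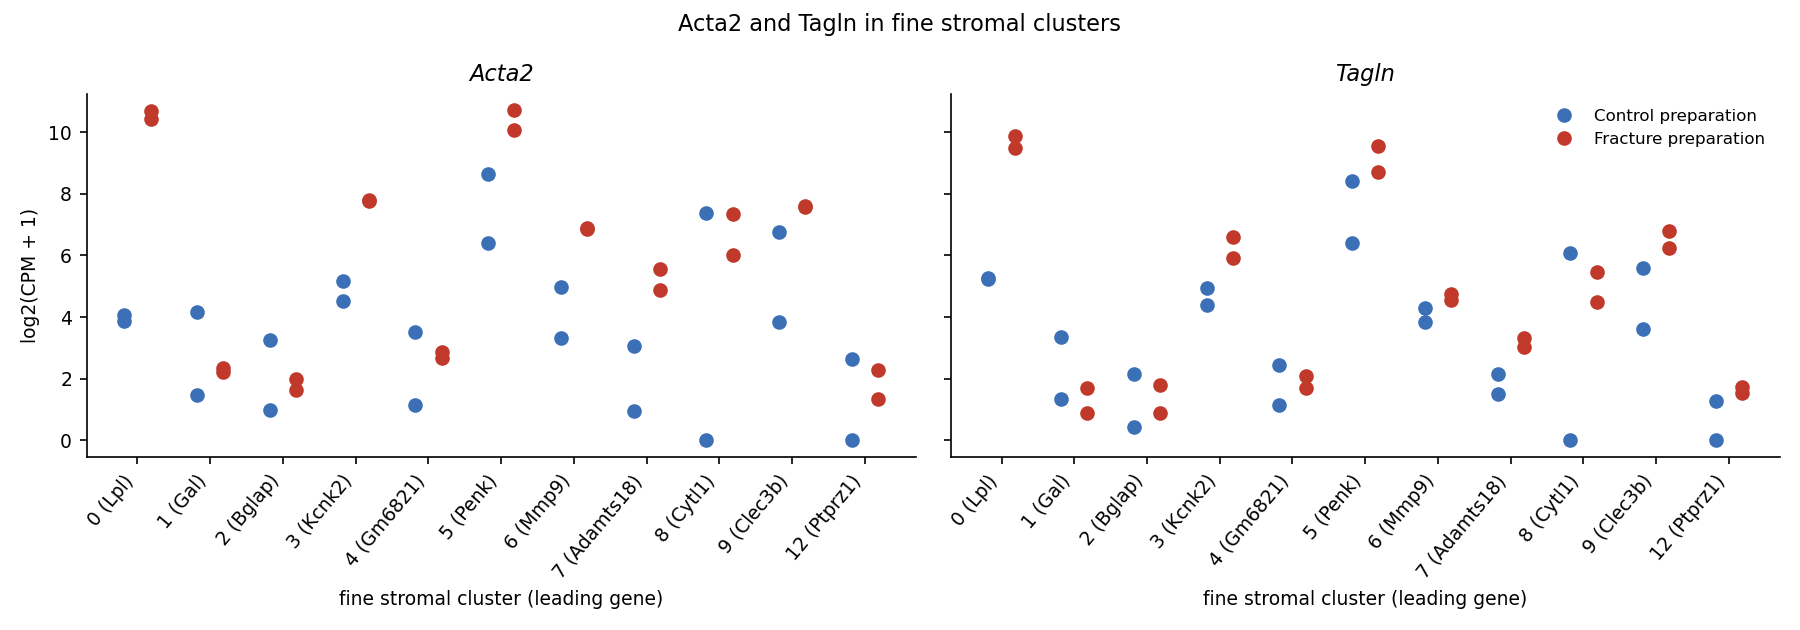
Acta2 and Tagln in 11 fine clusters of the stroma, named on the horizontal axis by number and leading gene, as log2 of plain CPM plus 1. Leading genes were taken over the cells of both groups. Each point is 1 preparation; the groups lie furthest apart in cluster 0 (Acta2 13.8 and 15.6 CPM against 1374 and 1631), while clusters 1, 2, 4 and 12 stay low in both groups.

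In the fibroblast-like cluster (382 and 134 cells in Control, 691 and 823 in Fracture), named from Clec3b, Dpt, Mfap5 and others, Acta2, Tagln, Myl9 and Cnn1 were not called, where 15.9% of the 12481 genes tested were called. Acta2 was at 166, 26.9, 307 and 225 CPM. Both Fracture preparations lay above both Control preparations, but these were far apart, and the log2 difference of 1.43 (SE 0.78) gave an adjusted p of 0.264 by edgeR. Tagln was at 106, 27.7, 109 and 73.3 CPM, Myl9 at 56.4, 12.4, 46.1 and 40.01 CPM, Cnn1 at 3.36, 0, 3.57 and 2.23 CPM, and Myh11 at 22.2, 0.728, 2.91 and 0.955 CPM, all with overlapping groups. In Control preparation 1 the libraries themselves were unlike, with Acta2 at 60.6 and 271 plain CPM, Tagln at 52.5 and 160 and Cnn1 at 0 and 6.70. Pdlim3 was the 1 gene of 8 tested that was called, lower at 3.36, 2.91, 0.265 and 0.531 CPM (-2.89, SE 0.49, adjusted p = 0.0269). Few UMIs stand behind this call. In the stromal subcluster named from the same fibroblast markers (408, 130, 700 and 823 cells) Pdlim3 had 10, 4, 2 and 3 UMIs. Rgs5 was at 62.1, 138, 32.6 and 41.9 CPM (-1.39, adjusted p = 0.0792) and Lmod1 at 7.05, 2.18, 1.85 and 1.17 CPM (-1.82, adjusted p = 0.0983).

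The Fracture cells of this cluster were unlike its Control cells as well. Its own 7 fibroblast markers summed to 21490 and 23280 CPM in Control and 7807 and 8314 in Fracture, while callus stroma markers went from 508 and 262 to 5061 and 4817, tendon markers from 1457 and 463 to 2623 and 2623, and erythroid markers from 21.2 and 113 to 1240 and 1396. The part of these transcripts in the fibroblast-like values, and in the mural minus fibroblast-like differences, was not tested. Without library 2 of Control preparation 1 alone, Acta2 (2.60, adjusted p = 0.0135 by edgeR) and Rgs5 (-1.61) were called, without library 1 of Control preparation 2 Lmod1 (-2.04) and Rgs5 (-0.84) were, and without library 2 of Fracture preparation 1 Pdlim3 was not (-3.05). Without the whole of Control preparation 1, Acta2 (3.31), Tagln (1.72), Myl9 (1.80) and Rgs5 (-1.87) passed the test. Without Control preparation 2 Acta2 (0.69), Myh11 (-3.57), Lmod1 (-2.23) and Rgs5 (-0.72) did. Pdlim3 lost its call, with all others of the class, without either Fracture preparation (-2.51 and -3.43), and also with the replicate block (-2.95). With no filter Acta2 (1.51), Myh11 (-2.78), Lmod1 (-1.72) and Rgs5 (-1.31) were called, the last also by DESeq2 (-1.36). Without integration, where the fibroblast-like cluster took in many of the Fracture cells described above, Acta2 was higher by 4.06, Tagln by 2.63, Myl9 by 2.77, Cnn1 by 4.73 and Lmod1 by 1.44, all past the threshold.

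The share of cells with a UMI separated cells from levels. At 1000 UMIs per cell in the BMSC-like cluster Acta2 was found in 2.39% and 0.759% of Control cells and in 21.8% and 19.96% of Fracture cells (8.72% and 2.51% against 40.8% and 39.9% without thinning). Tagln was found in 3.30% and 1.99% against 14.1% and 11.01%, and Acta2 with Tagln but without Myh11 and Rgs5 in 0.314% and 0.117% against 10.0% and 8.15%. Myh11 was found in 0.510% and 0.467% against 0.289% and 0%, and Rgs5 in 1.26% and 0.993% against 1.64% and 0.806%. Thinning left out 68, 1, 0 and 0 cells, and the median depths were 5314, 6805, 8391 and 8608 UMIs. Erythroid-like cells, which should lack Acta2, had it in 2.42%, 0.282%, 0% and 0.355% (median depths 2881, 8554, 7240 and 7250 UMIs). The Control share in BMSC-like cells was thus near this background in preparation 1 and above it in preparation 2 by less than a percentage point, and the Fracture shares lay far above it. In fibroblast-like cells Acta2 was found in 4.53% and 2.26% against 11.7% and 9.48%, and in osteoblast-like cells in 0.942%, 0.0989%, 0.364% and 0.736%. Stromal subcluster 1, mostly of BMSC-like cells, reached 43.0% and 37.6% in Fracture, from 1.79% and 0.653%.

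**Figure D3:**
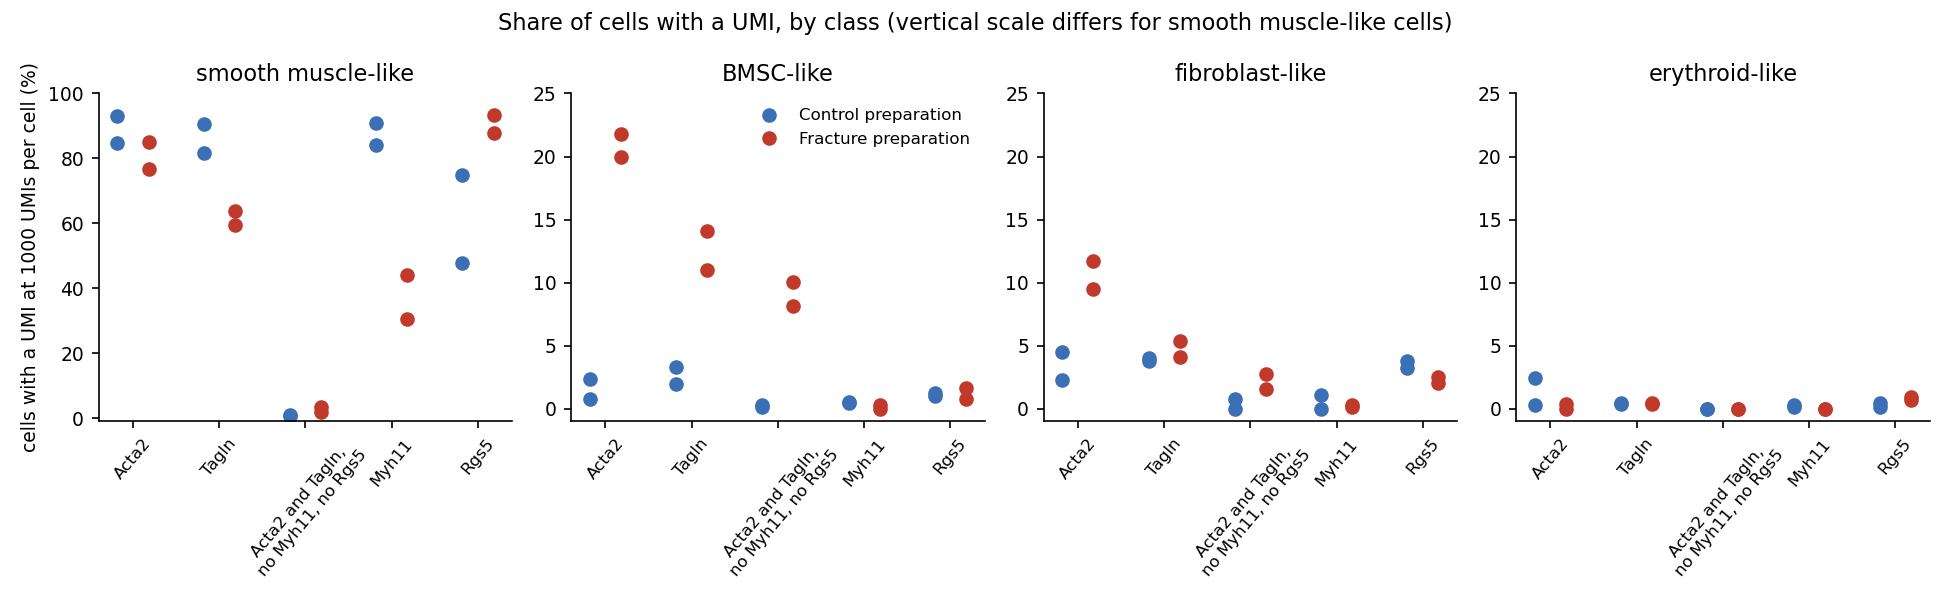
Percentage of cells with at least 1 UMI of a gene, or of Acta2 and Tagln without Myh11 and Rgs5, after thinning each cell to 1000 UMIs, in 4 classes. Each point is 1 preparation; in BMSC-like cells Acta2 lies at 2.39% and 0.759% in Control and 21.8% and 19.96% in Fracture, while Myh11 stays under 1%, and erythroid-like cells show the background.

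Fracture cells of the BMSC-like cluster with an Acta2 UMI at this depth (226 and 223 cells) were set beside those without one (811 and 894 cells), as a description with no test. Tagln stood at 1211 and 1081 plain CPM with and at 63.6 and 37.7 without, Cnn1 at 49.7 and 34.3 against 2.192 and 1.06, and Myl9 at 556 and 605 against 128 and 136. Lmod1 was at 24.5 and 22.5 against 2.47 and 3.17, and the pericyte marker Rgs5 at 70.2 and 18.2 against 17.7 and 9.17. Over the whole cluster 1 Fracture library stood far above the others for Rgs5 (57.8 CPM), and its part in these values was not tested. Lrrc15 was at 175 and 191 with Acta2 and 31.2 and 25.9 without, and the matrix protein gene Postn at 2148 and 2314 against 1255 and 1037. The marrow stromal genes Lepr (27.4 and 25.4 against 100 and 94.1) and Adipoq (31.4 and 41.5 against 120 and 152) had lower levels in the cells with Acta2, as had the matrix gene Tnc (1050 and 1010 against 1970 and 1896). Of the 10 mural markers, Ndufa4l2 (228 and 279 with, 114 and 99.9 without) and Mcam (14.3 and 10.007 against 7.53 and 8.23) were higher with Acta2 in both preparations. The other markers but Higd1b were lower in both, from Notch3 (30.7 and 26.8 against 31.1 and 36.1) to Kcnj8 (1.10 and 1.79 against 9.86 and 6.00). The pericyte gene Higd1b was at 0.731 and 0 with and 0.548 and 0.118 without, where Fracture mural cells had 291 and 321. Myh11 was at 12.1 and 6.79 with and 1.37 and 1.29 without, small beside its level in mural cells. In fibroblast-like cells (81 and 78 with, 610 and 745 without) Tagln was at 551 and 386 against 36.9 and 32.7, Lrrc15 at 485 and 438 against 210 and 213, Myh11 at 19.999 and 5.71 against 0.149 and 0.344, and Rgs5 at 42.9 and 119 against 30.002 and 30.97. Here 5 of the 10 mural markers were higher with Acta2 in both preparations, Notch3 (9.52 and 12.4 against 3.13 and 4.36), Mcam (9.52 and 9.51 against 3.58 and 1.72), Higd1b (1.90 and 7.61 against 0 in both), Kcnj8 (0.952 and 4.76 against 0.896 and 0.344) and Heyl (2.86 and 0.951 against 1.19 and 0.459). Cox4i2, Cspg4, Ednra and Ndufa4l2 were lower in both, and Abcc9 was mixed. Higd1b and Kcnj8 in Fracture preparation 1 and Heyl in Fracture preparation 2 were at or near the smallest count possible in so few cells. Their order is therefore uncertain. The share of all genes ordered in these ways was not counted in either cluster.

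**Figure D4:**
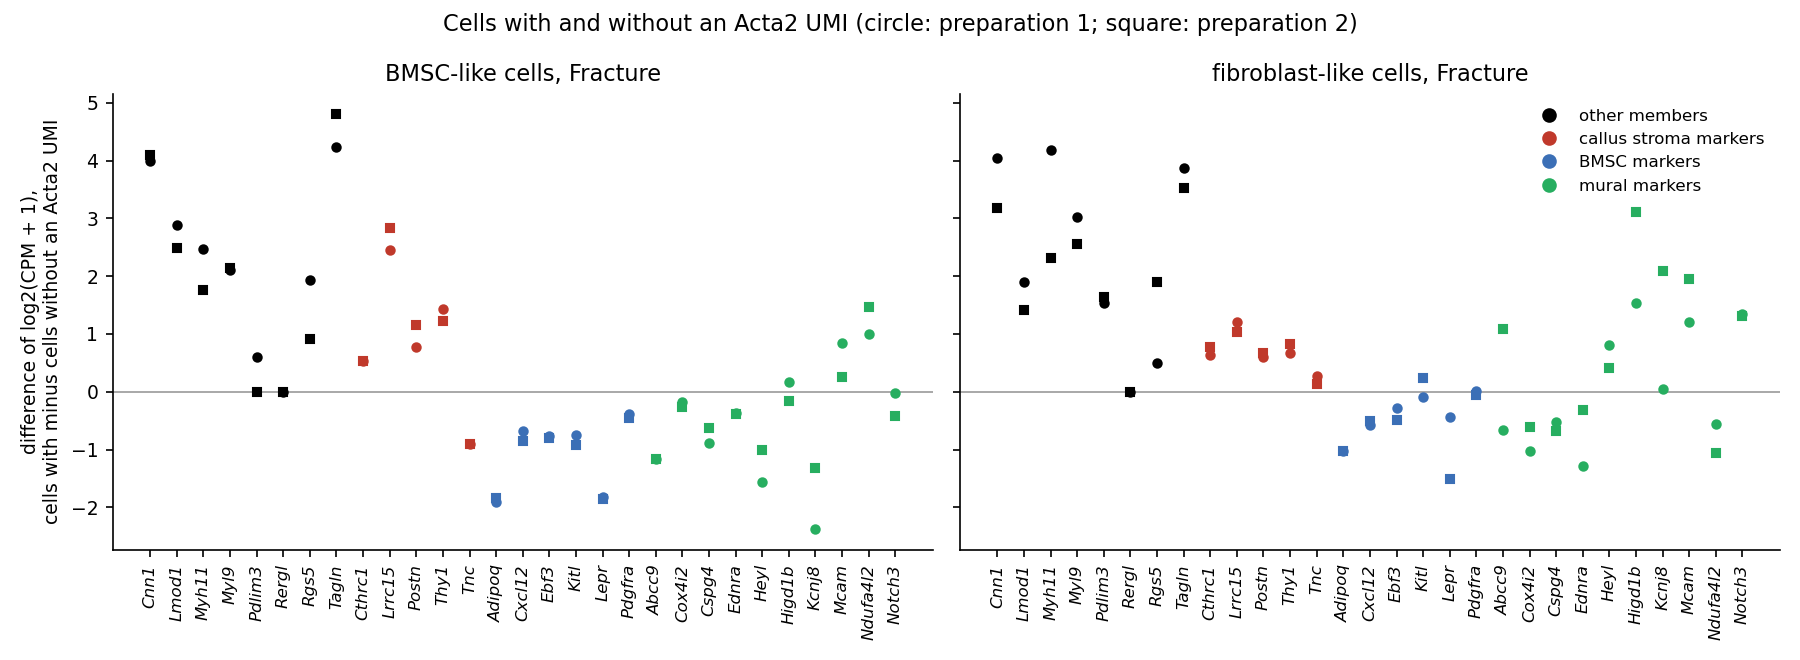
Difference of log2(CPM + 1) between Fracture cells with and without an Acta2 UMI at 1000 UMIs, for the other 8 genes and for markers of callus stroma, marrow stroma and mural cells, in BMSC-like and fibroblast-like cells. Circles are preparation 1 and squares preparation 2. Tagln and Cnn1 lie about 3 to 5 units up, while Adipoq lies under 0 in both classes. In fibroblast-like cells Adipoq is near the floor, at 0 and 0.951 CPM with Acta2 and 1.04 and 2.98 without.

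In the other stromal classes, the members called with all preparations were lower in Fracture. Mural cells were 7.41% and 4.16% of stromal cells (chondrocyte-like and endothelial-like cells included) in Control and 1.31% and 1.19% in Fracture, and no background level was subtracted. Erythroid markers in chondrocyte-like cells went from 126 and 338 to 936 and 978 CPM. Their osteoblast markers went from 7936 and 9468 to 14130 and 14915. Osteoblast-like cells had their own markers at 105632 and 122838 against 44608 and 57878 CPM. The part of these measures in the calls was not tested. In chondrocyte-like cells 37.2% of genes were called, and among the 8 members tested Tagln (31.3, 13.7, 4.68 and 5.37 CPM, log2 fold change -2.17, adjusted p = 0.0217 by edgeR), Myh11 (7.50, 2.71, 0.813 and 0.993 CPM, -2.58, adjusted p = 0.0214), Myl9 (35.9, 19.0, 8.92 and 8.44 CPM, -1.67, adjusted p = 0.0214) and Lmod1 (5.16, 4.73, 3.09 and 3.62 CPM, -0.57, adjusted p = 0.0346) were lower. Acta2 was at 34.6, 9.53, 16.3 and 15.7 CPM, with overlapping groups. These calls were lost without either Fracture preparation (Tagln -2.05 and -2.25, Myh11 -2.37 and -2.66, Myl9 -1.68 and -1.61, Lmod1 -0.44 and -0.67), and that for Lmod1 without Control preparation 1 (-0.48) and by DESeq2 (-0.54). With members kept in the clustering those for Tagln (-1.74), Myh11 (-2.01) and Lmod1 (-0.41) were lost, and with the replicate block those for Myh11 (-2.40) and Lmod1 (-0.57), while Acta2 was called in opposite directions without Control preparation 1 (0.76) and without Control preparation 2 (-1.11). In osteoblast-like cells, where 16.9% of genes were called, only Myh11 was lower (2.21, 1.64, 0.313 and 0.371 CPM, -2.49, adjusted p = 0.0157 by edgeR). That call was lost, with all others of the class, without either Fracture preparation (-2.38 and -2.61), and also without integration (-1.60). Acta2 was at 12.0, 1.28, 4.55 and 7.04 CPM, likewise called in opposite directions without Control preparation 1 (2.18) and without Control preparation 2 (-1.04). In endothelial-like cells, where 31.5% of genes were called, none of the 7 members tested was called. Acta2 was at 345 CPM in Control preparation 1 and at 34.6, 61.5 and 59.6 CPM in the others, and was called without Control preparation 1 (0.80) and, the other way, without Control preparation 2 (-2.51). The libraries of Control preparation 2 were themselves apart for Acta2, at 62.9 and 6.83 plain CPM in endothelial-like, 18.4 and 1.16 in chondrocyte-like and 1.80 and 0.604 in osteoblast-like cells, so no direction is given for it in these 3 classes.

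Whether the fracture difference was unlike in mural cells and in stroma was tested directly, with a class-by-group term in edgeR and the preparation as a block. Against BMSC-like cells, the fracture difference was unlike for 6 genes, where 18.4% of the 14646 genes tested were called. In both clusters the Fracture cells were unlike the Control cells in their markers, as given above. The part of this in the values was not tested, and Myh11 was low in BMSC-like cells. The difference of the log2 fold changes, mural minus BMSC-like, was -6.17 for Acta2 (SE 0.26), -5.03 for Tagln (SE 0.21), -5.51 for Cnn1 (SE 0.40), -2.95 for Myl9 (SE 0.19), -2.46 for Lmod1 (SE 0.25) and -2.08 for Myh11 (SE 0.33, adjusted p = 0.000442, the largest of the 6). In clusters built without integration Myh11 turned (0.37) and Cnn1 (-1.23) and Lmod1 (-1.71) were not called. For Rgs5 it was -0.35 (adjusted p = 0.685). Against fibroblast-like cells, where 13.1% of the 11911 genes tested were called, it was -2.69 for Acta2 (SE 0.53, adjusted p = 0.00599), -2.15 for Tagln (SE 0.40, adjusted p = 0.00451), -2.25 for Myl9 (SE 0.40, adjusted p = 0.00314), -1.98 for Cnn1 (SE 0.59, adjusted p = 0.0459) and 1.24 for Rgs5 (SE 0.31, adjusted p = 0.0194). Rgs5 thus went the other way from the filament genes, and Myh11 (0.34, adjusted p = 0.831) was not called. Without Fracture preparation 1 the calls against fibroblast-like cells were lost for Acta2 (-2.35), Tagln (-1.82), Cnn1 (-1.44) and Rgs5 (1.03), the last also without Fracture preparation 2 (1.44), and Myh11 was called in opposite directions without Control preparation 1 (-3.51) and without Control preparation 2 (1.02). Without Control preparation 1 Cnn1 stood at -7.31 and Acta2 at -3.96. The fibroblast-like cells of the Control preparation that was left held no Cnn1 UMI, so the size of the Cnn1 value was not measured.

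Of 36 other contractile genes, 35 were tested in mural cells, where 20 were lower and 3 higher (29.3% of all genes called in either direction, 1342 of 9914 lower), with a median log2 fold change of -0.97, against a median near 0 over all genes. The lower ones were 6 of 9 genes of myosin and its regulators, 5 of 7 that attach actin to membrane and matrix, 5 of 10 filament genes, all 3 of membrane excitation and 1 of 6 transcription factors tested. The largest falls were in Pln (775, 455, 36.1 and 107 CPM, fell by 3.10 on the log2 scale), which encodes the calcium pump inhibitor phospholamban, in Myocd (121, 84.9, 12.8 and 14.2 CPM, fell by 2.93), the master coactivator myocardin, in the myosin phosphatase subunit Ppp1r12b (fell by 2.76) and in Synpo2 (fell by 2.52). Their adjusted p-values by edgeR were 0.00826, 0.00136, 0.00127 and 0.00317. The genes that rose were Actg2, the gamma smooth muscle actin (76.8, 52.3, 469 and 562 CPM, 2.98, adjusted p = 0.00126), Des, which encodes desmin (251, 269, 464 and 460 CPM, 0.83, adjusted p = 0.00838), and Cnn3, calponin 3 (0.73, adjusted p = 0.0152). Acta2 and Actg2 encode nearly identical actins, so reads shared between them could have been counted for either or for neither. The 8 vascular smooth muscle markers include Pln and Itga8, so the lists are not independent. In pericyte-like cells 8 were lower and 2 higher of 34 tested, with Actg2 (3.02) and Des (1.28) the 2 higher ones, where 18.9% of all genes were called, and in vascular smooth muscle-like cells 2 were lower and 3 higher of 34, where 5.47% were.

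In BMSC-like cells 13 of 34 other contractile genes tested were higher and 8 lower (median 0.33, against -0.03 over all genes), a share not far from the 51.4% of all genes called there. Actg2 went from 9 and 8 UMIs to 946 and 1123, or from 0.547 and 0.598 to 100 and 107 CPM (7.48, SE 0.12, adjusted p = 0.000838 by edgeR). The tropomyosin gene Tpm2 was at 167, 98.4, 781 and 661 CPM (2.44, adjusted p = 0.00397), followed by Csrp1 (1.70, adjusted p = 0.00248) and the non-muscle myosin Myh10 (1.36, adjusted p = 0.00255). Filament genes made up 6 of the 13. The largest falls were in the integrin gene Itga8 (fell by 2.31), Synpo2 (fell by 2.06), Mrvi1 (fell by 1.76) and the cGMP-dependent kinase gene Prkg1 (fell by 1.64), the last 2 of the myosin regulator list. Among filament genes 6 were higher and 1 lower, and among regulators 2 higher and 4 lower, a difference between the lists that was not tested. In fibroblast-like cells 8 were higher and 7 lower of 34 tested (median 0.40, against a median near 0 over all genes), where 15.9% of all genes were called. Actg2 (6.38, 2.18, 27.01 and 23.1 CPM, 2.34, adjusted p = 0.0218 by edgeR), Actn1 (1.96), Cald1 (1.48) and Cnn2 (1.12) led those that rose. Myocd, with 9 and 4 UMIs in Control and 1 and 3 in Fracture, Mrvi1 (fell by 3.53), Ppp1r14a (fell by 3.31) and Itga8 (fell by 2.34) led those that fell.

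Over 36 sums of 9 classes in 4 preparations, the genes most like Acta2 by Pearson's r of log2(CPM + 1) among 11226 genes were Tagln (r = 0.907), Rem1 (0.901), Nexn (0.883), Cnn1 (0.878) and Aoc3 (0.872). Those most like Rgs5 were Higd1b (0.927), Olfr558 (0.917), Sgip1 (0.917), Gucy1a2 (0.913) and Myh11 (0.903). Thus 2 of the 9 genes were among the 5 nearest to Acta2 and 1 among the 5 nearest to Rgs5. The sums share preparations and depth, and the r values are a description.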

How the data were processed

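Single-cell RNA from 8 libraries (4 cell preparations, 2 libraries each) was analysed from the deposited UMI counts per gene and barcode. The submitters' processing notes name bcl2fastq 2.19.1.403, UMI-tools 1.0.0, STAR 2.7.3a, featureCounts of Subread 1.6.4 and the mm10 genome, whereas the study's methods also name STARsolo and EmptyDrops, so how the authors made these counts and chose barcodes was not settled. The pipeline counts transcripts from the 3′ end, so levels are CPM with no length term. All table columns were mapped to samples (0 unmapped), and 0 rows lacked a gene name.

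Barcodes with 500 to 6000 genes and at most 25% mitochondrial UMIs were kept, as were 26357 genes seen in at least 3 cells. Libraries shared at most 23 barcodes. Doublets (722, 1.59%, called by the scrublet function of scanpy 1.11.5 at an expected 6%) were kept. Libraries were integrated by anchors in Seurat 5.3.0 on 2000 variable genes, of which 1922 remained. Those left out were cell cycle genes and any of the members and 36 other contractile genes. Cells were clustered on 12 components at resolution 0.1 into 11 clusters. A cluster was named from at least 3 markers raised by a log2 fold of 1. Mural subclasses were cut at resolution 0.3, stroma at 0.08 and 0.5.

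UMIs were summed per preparation and class. Main tests used edgeR 4.0.16 (quasi-likelihood, TMM scaling, filterByExpr, no block, R 4.3.3) across all genes, with Benjamini-Hochberg adjustment at 0.05. Differences between classes used a class-by-group term over 8 sums with the preparation as a block. Shares of cells with a UMI were taken after thinning to 1000 UMIs. Intervals and floors (3 counts) are for counting error only, at 95%. Named genes were all 9 members and, of the other contractile genes, up to 4 called genes of largest change in each direction in mural, BMSC-like and fibroblast-like cells. Alternatives were DESeq2 1.42.0, no filter, a replicate block, each preparation or library left out, no integration, members kept in the clustering, doublets removed, and at least 3000 UMIs per cell. The scripts were tested on simulated data. Members and lists were chosen with earlier results of these data known.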

Additional observations from a re-analysis of the deposited data

Results flagged for a closer look

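Within groups of 4 libraries, 4 of the 50 sets of values examined had 1 library far from the others, where chance gives about 5%. In BMSC-like cells of Fracture, Rgs5 was at 57.8 CPM in 1 library and at 5.99, 12.5 and 10.1 CPM in the other libraries. In fibroblast-like cells of Control, Acta2 was at 271 CPM in library 2 of preparation 1 and at 60.6, 35.5 and 21.1 CPM in the other libraries, and Cnn1 was at 6.70 CPM in that library and at 0 in the others; without it Acta2 was called there (2.60). In mural cells of Control, Rergl was at 57.5 CPM in 1 library and at 43.2, 43.6 and 43.6 CPM in the others.

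The fracture difference itself differed between mural and stromal classes, by the class-by-group term of edgeR. Mural minus fibroblast-like, the log2 values were -2.69 for Acta2, -2.15 for Tagln, -2.25 for Myl9, -1.98 for Cnn1 and 1.24 for Rgs5. Mural minus BMSC-like, they were -6.17 for Acta2, -5.03 for Tagln, -2.08 for Myh11, -2.95 for Myl9, -5.51 for Cnn1 and -2.46 for Lmod1. The first set of calls was partly lost without a Fracture preparation, as given with the comparison, and the second rests on a BMSC-like cluster whose Fracture cells lacked most of the marrow stromal transcripts. Without integration the Myh11 value of the second set turned to 0.37, and Cnn1 (-1.23) and Lmod1 (-1.71) were not called.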

How the results depend on the processing

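Over the alternatives run, members called in the main fits kept direction and call in 338 values, lost the call in 59 and turned in 1, the mural minus BMSC-like difference of Myh11 without integration (0.37). Members not called kept both in 220, became called in 54 and turned in 32. Only part of the members entered these and the following tallies for chondrocyte-like, osteoblast-like and endothelial-like cells, stromal subcluster 2 and the class-by-group terms. Leaving out a preparation moved the number of genes called by edgeR from 6440 to between 268 and 8960 in chondrocyte-like, from 2320 to between 0 and 5466 in osteoblast-like, from 7574 to between 2591 and 9506 in BMSC-like, from 1982 to between 0 and 4054 in fibroblast-like, from 4538 to between 0 and 6736 in endothelial-like and from 2900 to between 474 and 3283 in mural cells, and from 1565 to between 852 and 2154 for mural minus fibroblast-like. Where it was 0, without either Fracture preparation, 2659 and 2712 osteoblast-like, 1696 and 1733 fibroblast-like and 3514 and 3858 endothelial-like genes had an unadjusted p under 0.05. The replicate numbers did not pair the preparations by any label (r of same-numbered deviations from -0.00702 in vascular smooth muscle-like cells to 0.131 in pooled stroma), and with the number as a replicate block 4231 chondrocyte-like, 1460 osteoblast-like, 744 fibroblast-like and 2977 endothelial-like genes were called. DESeq2 called 1870 genes in mural cells, and no filter gave 3687 in fibroblast-like cells. Without integration 154 genes were called in BMSC-like and 3065 in fibroblast-like cells, and 1361 for mural minus BMSC-like. In the 2 mural subclasses, 335 genes were called in vascular smooth muscle-like cells (1235 with no filter, 42 with the replicate block) and 1592 in pericyte-like cells (748 by DESeq2, 2529 with no filter). The mural share of stromal cells differed by -4.32 to -4.82 percentage points under the other settings of clusters and cells.

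Signs turned without integration for Acta2 in osteoblast-like (0.92) and endothelial-like cells (0.43), Lmod1 (-0.37) and Rgs5 (-1.13) in BMSC-like cells, Myh11 (0.55) and Lmod1 (1.44) in fibroblast-like cells and the mural minus fibroblast-like difference of Myh11 (-2.74), with the replicate block for Acta2 in osteoblast-like cells (0.35), and for Acta2 in chondrocyte-like cells with members kept (0.23) and with doublets removed (0.15). Leaving out a preparation or 1 library gave ranges across 0 for Acta2 in chondrocyte-like (-1.11 to 0.76), osteoblast-like (-1.04 to 2.18), endothelial-like (-2.51 to 0.80) and pericyte-like cells (-0.20 to 0.45), for Myh11 (-0.82 to 0.089) and Rgs5 (-0.89 to 1.05) in BMSC-like cells, for Tagln (-0.22 to 1.72), Myh11 (-3.67 to 1.33), Myl9 (-0.39 to 1.80) and Cnn1 (-0.30 to 7.13) in fibroblast-like cells, for Rgs5 in mural cells (-0.38 to 0.22), for Cnn1 in vascular smooth muscle-like (-0.56 to 0.19) and pericyte-like cells (-0.21 to 2.68), for Myh11 (-0.046 to 1.12) and Rgs5 (-0.78 to 0.012) in stromal subcluster 1, and for the mural minus fibroblast-like difference of Myh11 (-3.51 to 1.43). The upper end for Cnn1 in fibroblast-like cells came with no Cnn1 UMI left in Control, so its size was not measured. Leaving out single libraries, an alternative chosen after seeing the data, ended 5 calls in 135 values, made 7 and turned 7 values that were not called. The causes were not tested. With a preparation left out, the lone one is assumed to vary like the other group. Depth limits Rergl and Pdlim3 outside mural cells and the 26 vascular smooth muscle-like cells of each Fracture preparation.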
